A study of Mus musculus with 31 samples.

Results

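The genes described here are 10 members of the bone morphogenetic protein (BMP) pathway in the fetal mouse gonad, of 18193 genes named on the arrays. They are the ligands Bmp2, Bmp4 and Bmp7, the type I receptors Bmpr1a and Bmpr1b, the secreted antagonist Sostdc1, the intracellular inhibitor Smad6, and the target genes Id1, Id2 and Id3. A gene was measured by probe sets whose only platform symbol was its own, and where several existed, that of highest average log2 signal across the 31 arrays was used. All 10 passed the filter on dim genes and were tested.

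RNA was taken from gonads at embryonic day 14.5 and hybridised to 31 arrays, each for the gonads of 1 embryo, taken as a pair after removal of the mesonephros. Every embryo carried the Sf1-cre transgene (Sf1-cre+/Tg), whose regulatory sequence is active in somatic cells of the gonad, so that cells in which it is silent, such as germ cells, keep their floxed alleles. The double knockout (DKO) was Ctnnb1f/f; Sox9f/f, the Sox9 knockout (Sox9KO) was Ctnnb1+/f; Sox9f/f, and the Ctnnb1 knockout (Ctnnb1KO) was Ctnnb1f/f; Sox9+/f. The control (Ctr) was Ctnnb1+/f; Sox9+/f and also carried Cre, so it can be heterozygous for both genes, as each single knockout can be for the other gene. Each genotype was present as XY and XX gonads, with 4 arrays a group except XY DKO, which had 3. Values are linear MAS5 signals, tests were run on log2(signal + 16) with limma, and a gene was called at a Benjamini-Hochberg adjusted p under 0.05 over 11777 tested genes. That scale understates fold changes of dim genes. Pairs of gonads were the replicates, and comparisons that share a control group are not independent of each other.

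BMP ligands bind a complex of type I and type II serine/threonine kinase receptors, which phosphorylates SMAD1, SMAD5 and SMAD9. These enter the nucleus with SMAD4 and switch on target genes such as the Id genes, whose products hold basic helix-loop-helix factors away from DNA. Secreted antagonists trap ligands outside the cell, and inhibitory SMADs such as SMAD6 damp the signal inside it. In the fetal mouse, SOX9 drives Sertoli cell differentiation in the testis, and beta-catenin, encoded by Ctnnb1, carries canonical WNT signals that the ovary needs. Bmp2 is a known marker of the fetal ovary and depends on WNT signals there.

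RefSeq promoter windows (GRCm38.p6, 300 bases around a start site) were at hand for 6 of the 10 genes, in 8 windows. Of these, 3 are shown because their genes, Id2, Id3 and Bmpr1b, had high signal in the same 3 groups below. The Id2 window lies at chr12:25096043-25096342 on the minus strand, the Id3 window at chr4:136143572-136143871 on the plus strand, and the second of 3 Bmpr1b windows at chr3:141931539-141931838 on the minus strand. Capitals mark GGCGCC, the core of a BMP response element, in Id2, and AACAAT, a SOX motif, in Bmpr1b.
Id2: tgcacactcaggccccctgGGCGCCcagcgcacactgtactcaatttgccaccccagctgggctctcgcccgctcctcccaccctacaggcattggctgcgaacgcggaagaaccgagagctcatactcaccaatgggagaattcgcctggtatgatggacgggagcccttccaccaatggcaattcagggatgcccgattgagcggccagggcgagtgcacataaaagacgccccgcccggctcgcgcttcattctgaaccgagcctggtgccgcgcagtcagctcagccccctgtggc
Id3: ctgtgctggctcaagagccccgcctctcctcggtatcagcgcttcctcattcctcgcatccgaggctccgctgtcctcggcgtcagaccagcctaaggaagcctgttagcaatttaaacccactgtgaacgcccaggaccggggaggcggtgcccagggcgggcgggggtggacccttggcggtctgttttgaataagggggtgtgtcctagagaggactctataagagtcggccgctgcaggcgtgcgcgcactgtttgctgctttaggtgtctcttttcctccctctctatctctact
Bmpr1b: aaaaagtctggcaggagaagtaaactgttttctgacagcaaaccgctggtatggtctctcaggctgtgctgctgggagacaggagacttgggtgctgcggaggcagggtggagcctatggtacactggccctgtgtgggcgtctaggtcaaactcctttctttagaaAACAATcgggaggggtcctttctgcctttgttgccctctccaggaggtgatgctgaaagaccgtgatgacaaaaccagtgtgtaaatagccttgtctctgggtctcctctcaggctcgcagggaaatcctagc

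Both strands were searched for these motifs and for the TCF/LEF motif CTTTGA, and no match overlaps a match of another motif in these windows. GGCGCC starts at position -231 from the Id2 start site, and in the Bmpr1a window it starts at -198. AACAAT starts at -83 in the Bmpr1b window shown, at -223 on the minus strand in another Bmpr1b window, and at -33 in the Smad6 window. The Id3 window and the Bmp4 window held none of the motifs, and no window of the 6 genes held CTTTGA. Of 32851 RefSeq windows of the same length, 11.9% held the BMP response element core, 10.7% the SOX motif and 16% the TCF/LEF motif, so matches of this kind are common.

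The labels were checked before the genes were compared. Sox9 signal was 6.27 to 62.5 in the 4 groups with Sox9f/f, against 647.6 to 1025 in XY Ctnnb1KO and XY Ctr gonads. It was 82.8 to 136.5 in XX Ctnnb1KO and 11.7 to 174.3 in XX Ctr, where replicate 2 was the low array. The library labelled XX Ctnnb1KO replicate 4 had an Xist signal of 51.1, where the other 3 of its group had 7886 to 8553, and its signal for the Y-linked Eif2s3y was 29.6, against 2516 or more in XY arrays. For XX Ctnnb1KO against XX Ctr, calls were also made without it, and of the 6 called members 5 kept theirs: Bmp2 (-0.99 on the log2 scale, adjusted p = 3.68e-05), Bmpr1b (-1.71, adjusted p = 6.31e-07), Id2 (-0.64, adjusted p = 0.00795), Id3 (-0.67, adjusted p = 0.000387) and Sostdc1 (1.34, adjusted p = 0.00131). Id1 lost its call (-0.34, adjusted p = 0.14). Median signal per array ran from 120.6 to 168.8.

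Id1, Id2, Id3, Bmpr1b and Bmp2 had their highest group means in the same 3 groups, XY Sox9KO, XX Sox9KO and XX Ctr. Bmp2, Bmpr1b, Id1 and Id3 were lower with loss of Ctnnb1 in XX gonads and in XY gonads without Sox9, Id1 less firmly in XX gonads, while in XY gonads with Sox9 no member passed the test. Bmp4 and Sostdc1 ran the other way and were highest in XY Ctr and XY Ctnnb1KO. Bmp7 was called in no comparison and Bmpr1a in 1. These are whole gonads, in which fewer cells of a type and less RNA per cell cannot be told apart.

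**Figure D1:**
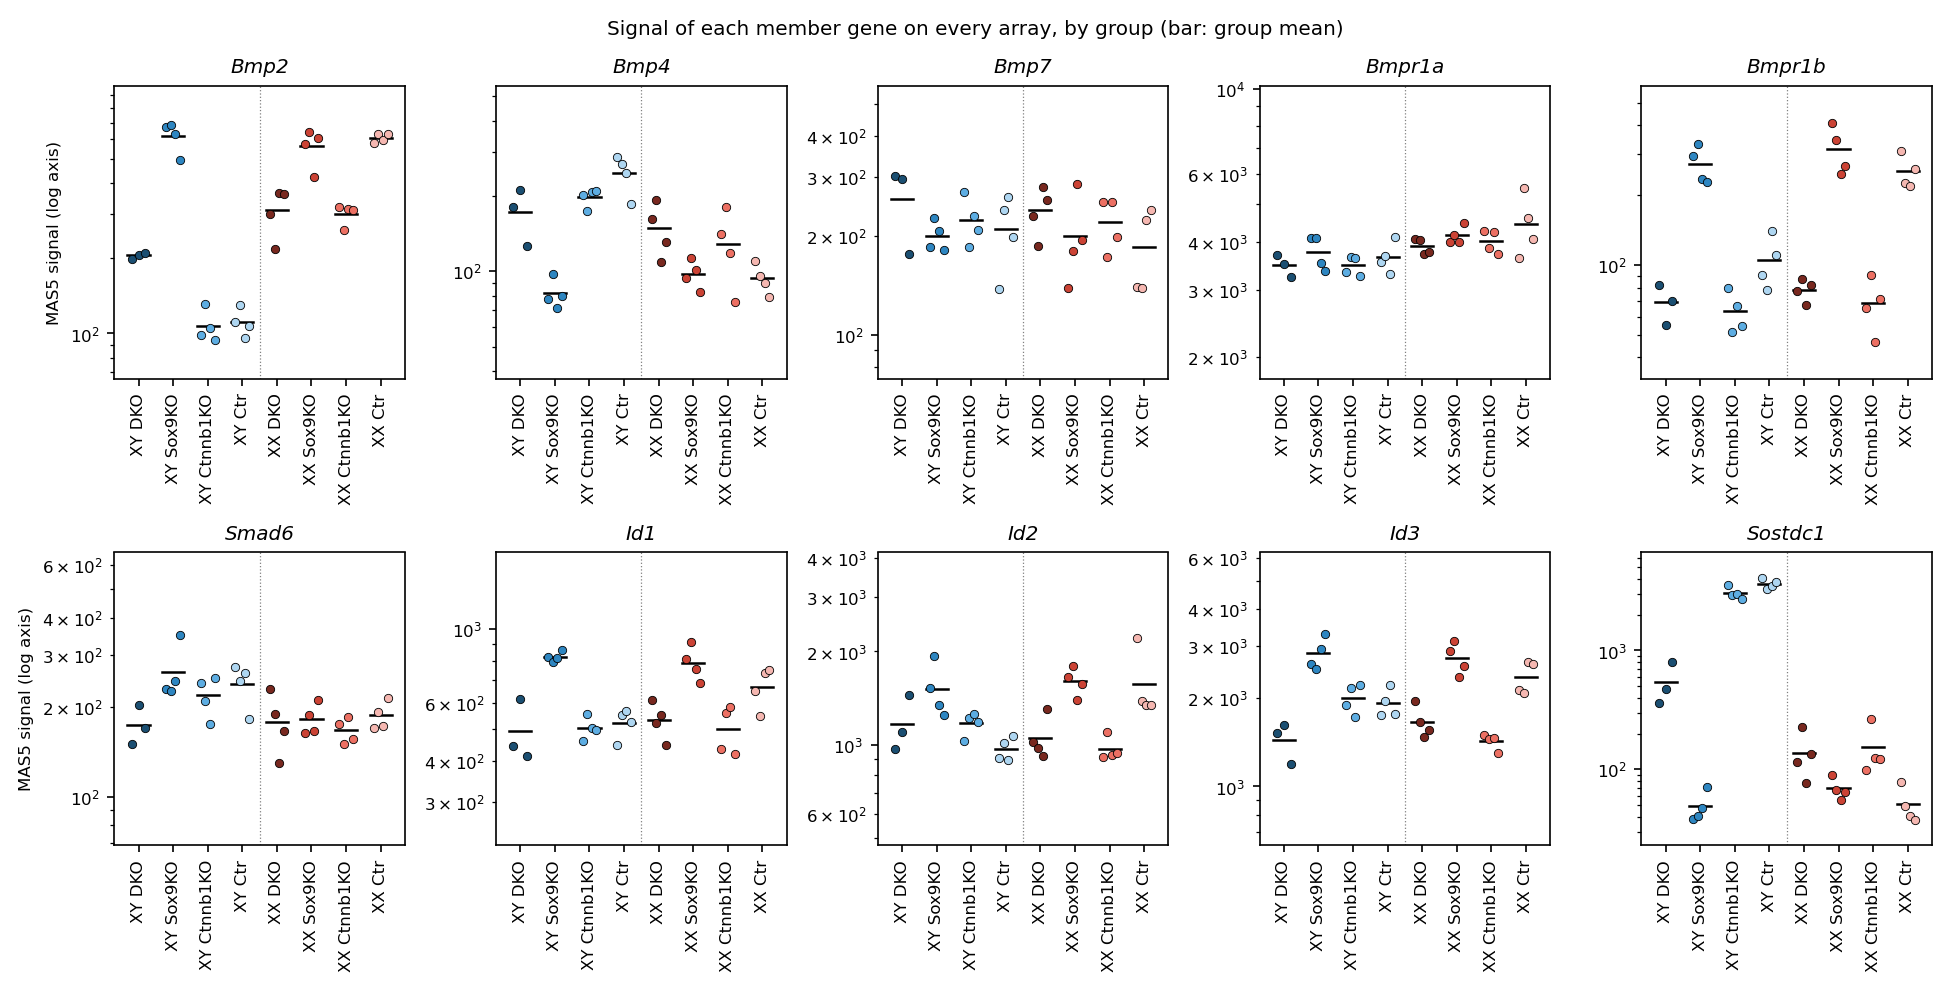
MAS5 signal (log axis) of the 10 genes on every array, with XY groups left of the dotted line and XX groups right of it; points are arrays and bars group means. Sostdc1 ran from 37.7 to 4054, while Bmpr1a stayed between 3245 and 5506 on all arrays.

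Between XY Ctr and XX Ctr gonads, 2 members were higher and 6 lower in XY Ctr, where 37.8% of all tested genes were called (18.0% higher, 19.8% lower). For XY Sox9KO against XY Ctr, 5 were higher and 2 lower, where 38.7% of genes were called (22.7% higher, the rest lower). In XY DKO against XY Sox9KO, 2 were higher and 5 lower, where 21.8% of genes were called (11.1% higher, 10.8% lower). In XY DKO against XY Ctr, 1 was higher and 2 lower, where 17.2% were called (9.62% higher, 7.61% lower). The counts for XX Ctnnb1KO against XX Ctr were 1 higher and 5 lower, where 10.1% of genes were called (4.81% higher, 5.32% lower). Without XX Ctnnb1KO replicate 4 they were 1 higher and 4 lower, where 8.18% of genes were called. Those for XX DKO against XX Ctr were 1 higher and 4 lower, where 12.9% were called (7.29% higher, 5.61% lower). Those for XX DKO against XX Sox9KO were 1 higher and 5 lower, where 13.5% were called (7.36% higher, 6.16% lower).

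No member was called by limma in 4 comparisons. For XY Ctnnb1KO against XY Ctr, 1 of 10 members had an unadjusted p under 0.05, and 0.0679% of all genes were called (0.00849% higher, 0.0594% lower). XY Sox9KO against XX Ctr had 4 such members and 0.628% of genes called (0.442% higher, 0.187% lower). XX Sox9KO against XX Ctr and XX DKO against XX Ctnnb1KO had 0 such members and 0% of genes called, although 537 and 965 genes had an unadjusted p under 0.05. Between XY Sox9KO and XX Ctr, Bmp2 differed by 0.02 ± 0.14 (log2 difference ± SE) and Sostdc1 by -0.04 ± 0.26, while the arrays of Smad6 (0.44 ± 0.16) and Id1 (0.31 ± 0.13) did not overlap.

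Bmp2, a ligand that signals through BMPR1A and BMPR1B, had signals of 199.5, 205.8 and 210.9 in XY DKO gonads, against 671, 683.4, 631.8 and 496.6 in XY Sox9KO gonads. It had 98.6, 131.5, 104.9 and 94.3 in XY Ctnnb1KO, against 111.2, 129.5, 95.5 and 106.7 in XY Ctr. The XY DKO arrays lay above all arrays of XY Ctnnb1KO and XY Ctr and below all of XY Sox9KO. XX gonads gave 300.9, 218.7, 365.9 and 361.4 in DKO, against 575.2, 640.3, 425.4 and 606.1 in Sox9KO. They gave 321.7, 258.6, 314.9 and 311.4 in Ctnnb1KO, against 580.3, 631.6, 593.3 and 627.1 in Ctr. No array of the XX groups with Ctnnb1f/f reached the lowest array of XX Ctr or XX Sox9KO.

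Bmp2 was lower in XY Ctr than in XX Ctr by a log2 difference of -2.31 ± 0.14 (4.94-fold, adjusted p = 3.59e-14). It was 5.01-fold higher in XY Sox9KO than in XY Ctr (adjusted p = 3.08e-14). It was lower with loss of Ctnnb1, by 1.97-fold in XX Ctnnb1KO against XX Ctr (adjusted p = 7.85e-06), by 1.78-fold in XX DKO against XX Sox9KO (adjusted p = 7.94e-05) and by 2.86-fold in XY DKO against XY Sox9KO (adjusted p = 7.89e-09). XY DKO gonads stayed 1.75-fold above XY Ctr (adjusted p = 0.00026). They were 1.45-fold below XX DKO (adjusted p = 0.035), a call lost in 10 of 13 alternatives, with adjusted p up to 0.162.

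Bmp4, a ligand of the same receptors, had signals of 180.6, 211.1 and 126 in XY DKO, against 77.5, 98, 71.7 and 79.4 in XY Sox9KO. It had 202.4, 174.2, 207.7 and 209.9 in XY Ctnnb1KO, against 285.4, 267.8, 246.5 and 185.6 in XY Ctr. All XY DKO arrays lay above all XY Sox9KO arrays, and the Ctnnb1KO and Ctr arrays overlapped. In XX gonads Bmp4 had 161.9, 193.7, 109.3 and 130.7 in DKO, against 94, 113.6, 100.9 and 82.6 in Sox9KO. The other XX groups had 141.2, 180.2, 118.5 and 75.2 in Ctnnb1KO, against 110.5, 96.3, 90.3 and 79.1 in Ctr. The ranges of the XX groups overlapped.

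Against XX Ctr, Bmp4 was 2.37-fold higher in XY Ctr (log2 difference 1.24 ± 0.19, adjusted p = 5.82e-06). It fell 2.67-fold in XY Sox9KO against XY Ctr (adjusted p = 7.11e-07) and was 1.9-fold higher in XY DKO than in XY Sox9KO (adjusted p = 0.00151). In XX DKO against XX Ctr its log2 difference of 0.56 ± 0.19 was not called (adjusted p = 0.0531), although it was without XX Ctr replicate 1 (adjusted p = 0.0492) or XX DKO replicate 3 (adjusted p = 0.0256). Bmp7, the third ligand, had group means between 184.9 in XX Ctr and 258.4 in XY DKO, and the arrays of neighbouring groups overlapped throughout. Its group means spanned 0.45 on the log2 scale, with a median SD within groups of 0.31.

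Bmpr1b, a type I receptor needed for female fertility in the mouse, had signals of 81.9, 55.2 and 70.3 in XY DKO, against 295.9, 333.5, 234.9 and 229.1 in XY Sox9KO. In XY Ctnnb1KO it had 79.8, 51.3, 66.8 and 54.6, against 90.6, 78.1, 140.1 and 110 in XY Ctr. The first comparison left the arrays wide apart, and the second did not separate them. XX DKO gonads had 77.3, 87.5, 67.2 and 81.7, against 407.9, 345.3, 248 and 267.6 in XX Sox9KO. XX Ctnnb1KO gonads had 65.6, 90.3, 46.8 and 71.2, against 310.5, 225.9, 218.4 and 259 in XX Ctr. Every array of the 4 groups with Ctnnb1f/f and of XY Ctr lay under its own array's median, and every array of the other 3 groups lay above it.

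Bmpr1b was lower with loss of Ctnnb1, by 3.22-fold in XX Ctnnb1KO against XX Ctr (log2 difference -1.69 ± 0.19, adjusted p = 9.61e-08), 3.48-fold in XX DKO against XX Sox9KO (adjusted p = 2.31e-08) and 3.39-fold in XY DKO against XY Sox9KO (adjusted p = 8.66e-08). XY Ctnnb1KO gave a log2 difference of -0.6 ± 0.19 against XY Ctr, with an unadjusted p of 0.00365 and an adjusted p of 0.895. Bmpr1b was 2.25-fold lower in XY Ctr than in XX Ctr (adjusted p = 9.46e-06) and 2.41-fold higher in XY Sox9KO than in XY Ctr (adjusted p = 2.72e-06). A second probe set of Bmpr1b gave -1.68 for XX Ctnnb1KO against XX Ctr (adjusted p = 7.03e-08) and -1.8 for XY DKO against XY Sox9KO (adjusted p = 4.35e-08). With it, XY DKO against XY Ctr was called too (-0.67, adjusted p = 0.0192).

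Bmpr1a, the more broadly expressed type I receptor, was above the array median on all 31 arrays. Its group means ran from 3473 in XY Ctnnb1KO and 3477 in XY DKO to 4458 in XX Ctr. Its only call was for XY Ctr against XX Ctr, 1.21-fold lower (adjusted p = 0.0209). The arrays of those groups overlapped, the call was lost in 5 of 14 alternatives, and of 4 other tested probe sets of the gene it was kept in 1.

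**Figure D2:**
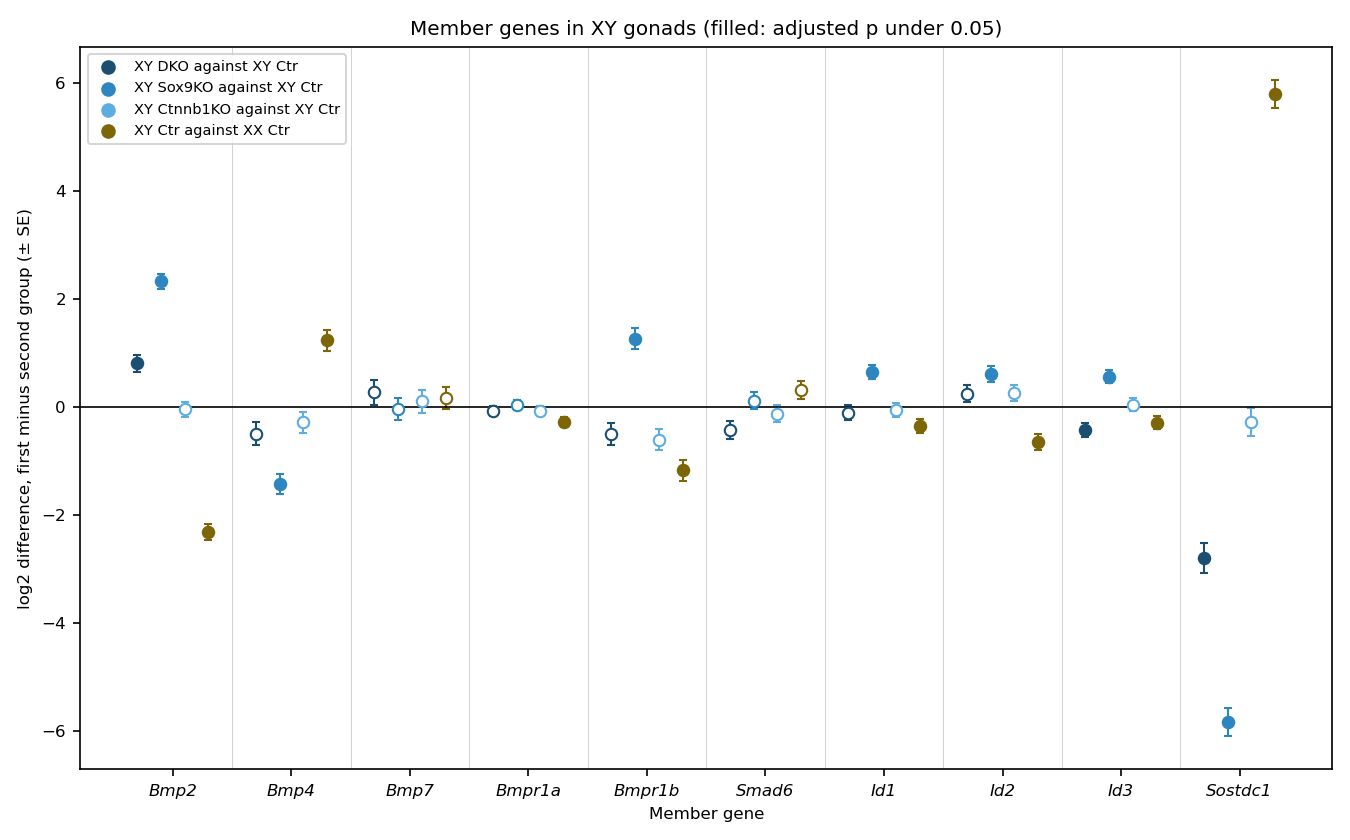
Log2 differences, first minus second group, with SE, for the 10 genes in 3 comparisons of XY knockouts with XY Ctr and in XY Ctr against XX Ctr; filled points passed the test. Sostdc1 reaches -5.83 in XY Sox9KO and -2.79 in XY DKO, and no point of XY Ctnnb1KO against XY Ctr is filled.

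Sostdc1 encodes a secreted antagonist that binds BMPs and also the WNT coreceptors of the LRP family. Its signals were 361.4, 470.3 and 792.2 in XY DKO, against 38.1, 40.5, 47.2 and 71.3 in XY Sox9KO. XY Ctnnb1KO gonads had 3562, 2905, 2998 and 2685, against 4054, 3290, 3502 and 3760 in XY Ctr. The XY DKO arrays lay between these levels and touched neither. In XX gonads DKO had 114.8, 228.6, 77.2 and 133.7, against 90.3, 66.8, 55.8 and 64.8 in Sox9KO. XX Ctnnb1KO had 99.8, 267.2, 125.3 and 121.5, against 78.5, 49.2, 40.5 and 37.7 in XX Ctr. The highest XX array was below the lowest XY DKO array, and XX Ctnnb1KO and XX Ctr did not overlap.

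Sostdc1 was 55.6-fold higher in XY Ctr than in XX Ctr (log2 difference 5.8 ± 0.26, adjusted p = 1.53e-17), and it fell 57.1-fold in XY Sox9KO against XY Ctr (adjusted p = 1.33e-17). Every Sostdc1 array of XY Sox9KO and XX Ctr was below its array's median, so the sizes depend on the pseudocount. The XY Ctr against XX Ctr difference was 6.18 on the log2 scale with a pseudocount of 1 and 5.02 with 64. XY DKO was 6.91-fold below XY Ctr (adjusted p = 6.35e-09), 8.26-fold above XY Sox9KO (adjusted p = 1e-09) and 3.64-fold above XX DKO (adjusted p = 6.43e-05). In XX gonads it rose 2.42-fold in Ctnnb1KO against Ctr (adjusted p = 0.000726) and 2.21-fold in DKO against Ctr (adjusted p = 0.00221). Only 1 of 4 arrays of each of these knockout groups, replicate 2 both times, was above its array's median, and XX DKO overlapped XX Ctr. The 1.72-fold rise in XX DKO against XX Sox9KO (adjusted p = 0.0397) was lost in 9 of 14 alternatives. A second Sostdc1 probe set gave the same direction but a smaller difference in each of the following comparisons with a dim group. The differences were 4.45 for XY Ctr against XX Ctr, -4.12 for XY Sox9KO against XY Ctr and 1.74 for XY DKO against XY Sox9KO. For the last, the first probe set gave 3.4 with a pseudocount of 1 and 2.36 with 64. With the second probe set XY DKO against XX DKO was not called (1.03, adjusted p = 0.0999).

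Smad6, the inhibitory SMAD, is itself switched on by BMP signals. It had 150.1, 203.2 and 170.8 in XY DKO, against 231, 226.3, 245.1 and 350.1 in XY Sox9KO, with no overlap. This was its only call, 1.45-fold lower (log2 difference -0.54 ± 0.17, adjusted p = 0.0247), and it was lost in 5 of 13 alternatives, among them without XY Sox9KO replicate 4 (adjusted p = 0.117) and without XY DKO replicate 2 (adjusted p = 0.117). Its other group means lay between 166.9 in XX Ctnnb1KO and 239.9 in XY Ctr.

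Id3 had signals of 1516, 1617 and 1193 in XY DKO, against 2612, 2514, 2937 and 3298 in XY Sox9KO. It had 1890, 2169, 1718 and 2216 in XY Ctnnb1KO, against 1752, 1954, 2214 and 1766 in XY Ctr. Every XY DKO array was below the lowest array of the other 3 XY groups. XX DKO had 1946, 1653, 1470 and 1553, against 2892, 3127, 2363 and 2561 in XX Sox9KO. XX Ctnnb1KO had 1491, 1453, 1461 and 1300, against 2122, 2074, 2645 and 2612 in XX Ctr. Neither XX pair of groups overlapped.

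The fall of Id3 with Ctnnb1 loss was 1.64-fold in XX Ctnnb1KO against XX Ctr (log2 difference -0.72 ± 0.12, adjusted p = 4.37e-05), 1.65-fold in XX DKO against XX Sox9KO (adjusted p = 3.61e-05) and 1.96-fold in XY DKO against XY Sox9KO (adjusted p = 5.91e-07). XY Sox9KO was 1.47-fold above XY Ctr (adjusted p = 0.000298). XY DKO was 1.33-fold below XY Ctr (adjusted p = 0.0202) and 1.39-fold below XY Ctnnb1KO (adjusted p = 0.00966). Without XY DKO replicate 4 both were lost (adjusted p = 0.146 and 0.0873), and the first also without XY Ctr replicate 3 (adjusted p = 0.0796). XY Ctr was 1.23-fold below XX Ctr (adjusted p = 0.0465), a call lost in 8 of 14 alternatives.

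Id1 had 443.2, 616.6 and 415 in XY DKO, against 827, 797.6, 819.8 and 864.4 in XY Sox9KO. In XY Ctnnb1KO it had 460.3, 554.3, 502.1 and 496, against 447.3, 550.7, 565.8 and 524.3 in XY Ctr. XY Sox9KO stood above the other XY groups with no overlap. The XX values were 610.2, 521, 548.9 and 445.3 in DKO, against 813, 912.4, 756.5 and 689.3 in Sox9KO. They were 435.7, 559.9, 583.7 and 419 in Ctnnb1KO, against 648.4, 546.2, 738.2 and 752 in Ctr. The last pair overlapped through replicate 2 of XX Ctr.

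Id1 fell 1.68-fold in XY DKO against XY Sox9KO (adjusted p = 0.000132) and 1.48-fold in XX DKO against XX Sox9KO (adjusted p = 0.00208), and it rose 1.57-fold in XY Sox9KO against XY Ctr (adjusted p = 0.000137). The 1.34-fold fall in XX Ctnnb1KO against XX Ctr (adjusted p = 0.0311) was lost without XX Ctnnb1KO replicate 4 (log2 difference -0.34, adjusted p = 0.14) and in 4 other alternatives. These were XX Ctnnb1KO replicate 1 left out (adjusted p = 0.12), XX Ctr replicate 3 or 4 left out (adjusted p = 0.103 and 0.109), and the fit on only the arrays compared (adjusted p = 0.127). XX DKO against XX Ctr was not called for Id1 (-0.33 ± 0.13, adjusted p = 0.0935). XY Ctr was 1.27-fold below XX Ctr (adjusted p = 0.0312), a call lost in 5 of 14 alternatives.

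Id2 had 967.8, 1097 and 1450 in XY DKO, against 1526, 1938, 1346 and 1251 in XY Sox9KO. In XY Ctnnb1KO it had 1032, 1223, 1255 and 1185, against 909.7, 1017, 892.2 and 1065 in XY Ctr. Both pairs overlapped. XX DKO gave 1020, 974.9, 919.8 and 1302, against 1658, 1789, 1400 and 1570 in XX Sox9KO. XX Ctnnb1KO gave 910.5, 1104, 929.7 and 940, against 2214, 1383, 1346 and 1342 in XX Ctr. Neither XX pair overlapped, and replicate 1 of XX Ctr stood above the rest of its group.

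Id2 fell 1.57-fold in XX Ctnnb1KO against XX Ctr (adjusted p = 0.00214), 1.52-fold in XX DKO against XX Sox9KO (adjusted p = 0.00392) and 1.46-fold in XX DKO against XX Ctr (adjusted p = 0.01). The last was lost without XX Ctr replicate 1 (log2 difference -0.37, adjusted p = 0.0761) and with only the arrays compared (adjusted p = 0.0638). XY DKO against XY Sox9KO was not called (-0.37 ± 0.16, adjusted p = 0.0951), and without XY DKO replicate 4 it was (adjusted p = 0.03). XY Sox9KO was 1.53-fold above XY Ctr (adjusted p = 0.00116), and XY Ctr was 1.57-fold below XX Ctr (adjusted p = 0.000598). A second Id2 probe set was called in neither XX Ctnnb1KO against XX Ctr (-0.43, adjusted p = 0.415) nor XX DKO against XX Sox9KO (-0.64, adjusted p = 0.111), nor XX DKO against XX Ctr (-0.16, adjusted p = 0.76), nor XY Ctr against XX Ctr (-0.37, adjusted p = 0.29). It was called for XY Sox9KO against XY Ctr (0.92, adjusted p = 0.00518) and XY DKO against XY Sox9KO (-0.95, adjusted p = 0.0144).

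**Figure D3:**
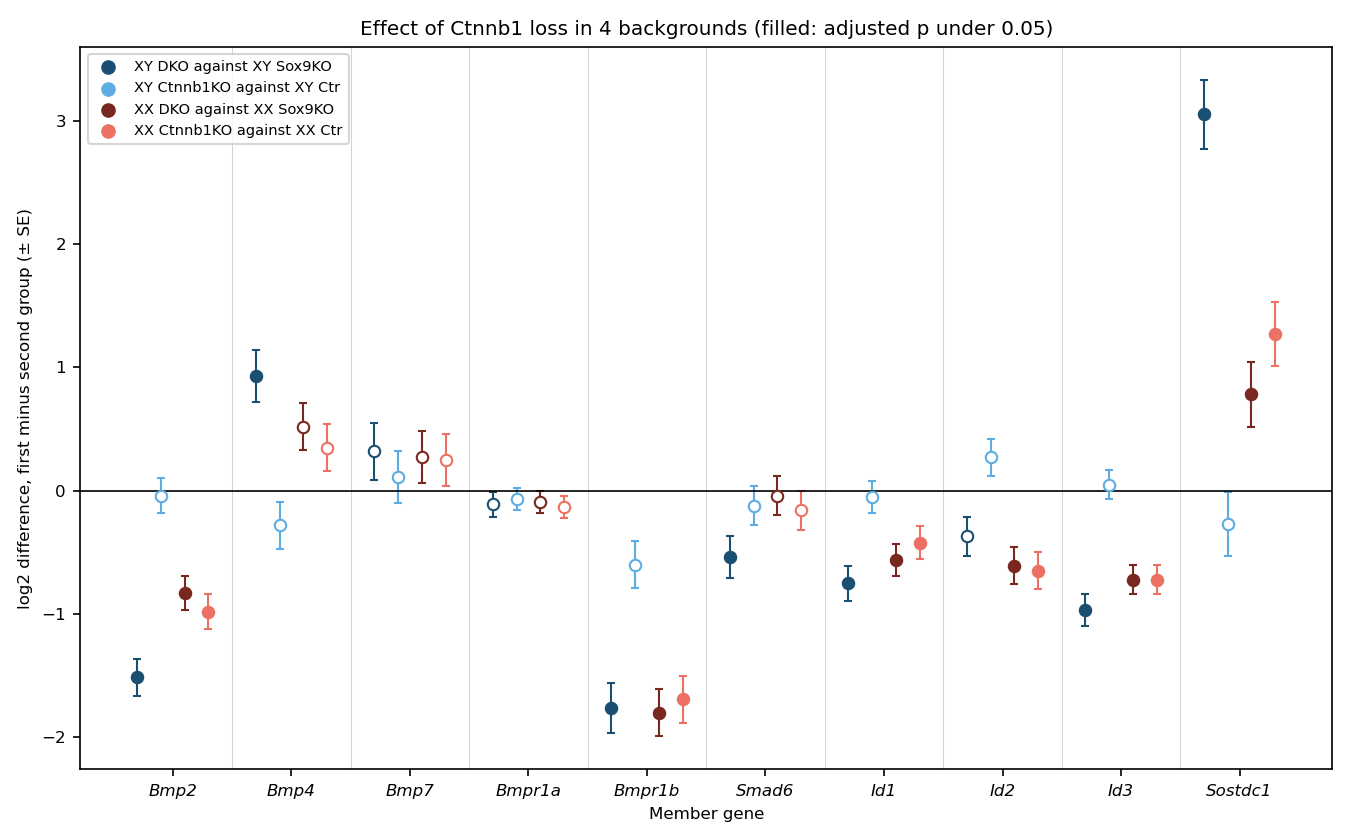
Log2 differences with SE for loss of Ctnnb1 in 4 backgrounds, namely XY gonads without Sox9, XY gonads with it, XX gonads without Sox9 and XX gonads with it; filled points passed the test. Bmpr1b lies at -1.76, -0.6, -1.8 and -1.69 in that order, and Sostdc1 at 3.05, -0.27, 0.78 and 1.27.

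Whether the effect of Ctnnb1 loss depended on Sox9 in XY gonads was tested as an interaction, the difference XY DKO minus XY Sox9KO less the difference XY Ctnnb1KO minus XY Ctr. Of 10 members, 2 were higher and 4 lower, where 9.75% of all genes were called (5.27% higher, 4.47% lower). Bmp2 (-1.47 ± 0.21, adjusted p = 9.2e-06), Id3 (-1.03 ± 0.17, adjusted p = 8.28e-05), Bmpr1b (-1.16 ± 0.28, adjusted p = 0.00531) and Id1 (-0.7 ± 0.19, adjusted p = 0.0131) had negative values. The Id1 call was lost without XY DKO replicate 4 (adjusted p = 0.0582). Sostdc1 (3.31 ± 0.38, adjusted p = 3.13e-07) and Bmp4 (1.21 ± 0.29, adjusted p = 0.00491) had positive values. Id2 was not called (-0.64 ± 0.21, adjusted p = 0.0578). Every Bmp2 and Bmpr1b array of XY Ctr and XY Ctnnb1KO was below its own array's median, which limits how large a fall could be seen there. The Id1 and Id3 arrays of these groups were all above it. Every Sostdc1 and Bmp4 array of XY Sox9KO was below its own array's median, so the sizes of their positive values are uncertain. Over 21 alternatives they ran from 2.63 to 3.67 for Sostdc1 and from 0.92 to 1.4 for Bmp4, with all calls kept.

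The effect of Ctnnb1 loss in XY less that in XX gonads was called for 5 members, 4 higher and 1 lower, where 4.19% of genes were called (2.45% higher, 1.75% lower). The count was the same without XX Ctnnb1KO replicate 4. Bmpr1b (1.09 ± 0.27, adjusted p = 0.0123), Bmp2 (0.94 ± 0.2, adjusted p = 0.00347), Id2 (0.92 ± 0.21, adjusted p = 0.00493) and Id3 (0.77 ± 0.16, adjusted p = 0.00335) had positive values, and Sostdc1 a negative one (-1.54 ± 0.36, adjusted p = 0.00853). In XY gonads themselves none of the 5 was called. For Bmp2 and Bmpr1b the low signal in XY Ctr limits this comparison in the same way. Every Sostdc1 array of XX Ctr was below its array's median, and only 1 of 4 of XX Ctnnb1KO was above it. Neither Sostdc1 nor Id2 was called in this interaction with its second probe set. The effect of Sox9 loss in XY less that in XX was called for 3 members higher and 2 lower, where 23.3% of genes were called (12.7% higher, 10.7% lower). These were Bmp2 at 2.45 ± 0.2 (adjusted p = 7.91e-11), Bmpr1b at 0.98 ± 0.27 (adjusted p = 0.00733) and Id2 at 0.56 ± 0.21 (adjusted p = 0.0483), and Sostdc1 at -6.2 ± 0.36 (adjusted p = 4.54e-14) and Bmp4 at -1.46 ± 0.28 (adjusted p = 0.000156). The Id2 call was lost in 13 of 22 alternatives.

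Between the sexes, members also differed among knockouts of the same genotype. XY Ctnnb1KO against XX Ctnnb1KO had 3 members higher and 1 lower, where 32.5% of genes were called (16.5% lower, the rest higher). They were Sostdc1 (19.1-fold, adjusted p = 3.84e-14), Bmp4 (1.53-fold, adjusted p = 0.0146) and Id3 (1.39-fold, adjusted p = 0.00197) higher and Bmp2 (2.58-fold, adjusted p = 5.71e-09) lower. Without XX Ctnnb1KO replicate 4, Bmp4 was not called (log2 difference 0.41, adjusted p = 0.0986). XY DKO against XX DKO had 1 higher and 1 lower, Sostdc1 and Bmp2, where 5.22% of genes were called (3.45% higher, 1.77% lower). In XY DKO against XY Ctnnb1KO, Bmp2 was 1.81-fold higher (adjusted p = 0.000152) and Sostdc1 was 5.74-fold lower (adjusted p = 5.07e-08), with Id3 as the other lower member, where 14.0% of genes were called (7.66% higher, 6.33% lower).

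Other genes of the pathway were described from 5 lists of 50 genes. Of 11 other ligands 2 were tested, Bmp5 and Bmp6, as were 7 of 8 receptors and coreceptors, 10 of 11 signal transducers and inhibitors, 5 of 14 secreted antagonists and modulators, and 6 of 6 target genes. Bmp5, a ligand close to Bmp7 in sequence, had 225.6, 198.3 and 218.3 in XY DKO, against 644.7, 619.2, 467.6 and 616.4 in XY Ctr (2.6-fold lower, adjusted p = 8.69e-05). It had 140.8, 175.9, 61.7 and 100.3 in XX Ctnnb1KO, against 514.8, 422.6, 284 and 350.7 in XX Ctr (3.12-fold lower, adjusted p = 2.6e-06). Neither pair overlapped. In XY Ctnnb1KO against XY Ctr, 0 of the 2 ligands were called, and Bmp5 averaged 585.4 in XY Ctnnb1KO and 586.9 in XY Ctr. Both Bmp5 and Bmp6 were called lower in XY Sox9KO than in XY Ctr, beside 38.7% of all genes called. In XY DKO against XY Sox9KO 0 of the 2 were called, beside 21.8% of all genes. The Ctnnb1 by Sox9 interaction in XY gonads was also called for 0 of the 2, beside 9.75% of all genes.

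Among the 6 other targets, 3 were lower in XY Ctr than in XX Ctr, 3 were higher in XY Sox9KO than in XY Ctr, and 3 were lower in XY DKO than in XY Sox9KO, beside 37.8%, 38.7% and 21.8% of all genes called in either direction. They were the homeobox genes Msx1 and Msx2 and the zinc finger gene Gata2 each time. Msx1 had 159.2, 136.6 and 125.2 in XY DKO, against 1103, 1104, 1150 and 1340 in XY Sox9KO (7.62-fold lower, adjusted p = 7.5e-14). It had 68.5, 36.4, 33.9 and 35 in XY Ctr, against 1063, 1077, 1201 and 1133 in XX Ctr (19.6-fold lower, adjusted p = 2.99e-19). No arrays overlapped in these pairs, and XY DKO lay above XY Ctr (2.69-fold, adjusted p = 2.8e-07). In XX Ctnnb1KO against XX Ctr, Msx1 fell 3.1-fold (adjusted p = 6.87e-09) and Msx2 3.68-fold (adjusted p = 0.000592), as 2 of 6 targets beside 10.1% of all genes, and the same 2 were called in XX DKO against XX Sox9KO. Id4, Atoh8 and Hey1 were called in none of these comparisons.

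In the 3 remaining lists, 1 receptor, 1 transducer and 1 antagonist of 7, 10 and 5 tested were called in XX Ctnnb1KO against XX Ctr, all higher, shares near the 10.1% of all genes. These were Acvr1, Skil and Htra1, and each was also called lower in XY Sox9KO than in XY Ctr. Skil, a corepressor of SMAD proteins, was 1.68-fold higher in XX Ctnnb1KO than in XX Ctr (adjusted p = 4.56e-07), 1.75-fold higher in XX DKO than in XX Sox9KO (adjusted p = 9.26e-08) and 1.65-fold higher in XY DKO than in XY Sox9KO (adjusted p = 1.79e-06). The type I receptor gene Acvr1 was higher in these comparisons by 1.3-fold (adjusted p = 0.00702), 1.27-fold (adjusted p = 0.0128) and 1.39-fold (adjusted p = 0.00083), and the secreted protease gene Htra1 by 1.39-fold (adjusted p = 0.012), 1.61-fold (adjusted p = 0.000218) and 2.02-fold (adjusted p = 1.45e-06). Of the 7 receptors and coreceptors, 3 were lower in XY Sox9KO than in XY Ctr and 0 higher, and of 10 transducers and inhibitors 4 were lower and 2 higher, beside 38.7% of all genes called. Bmper, which encodes an extracellular BMP-binding protein, was 2.21-fold lower there (adjusted p = 3.42e-05).

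Without XX Ctnnb1KO replicate 4, an alternative chosen after seeing the data, all 6 genes of these lists called in XX Ctnnb1KO against XX Ctr kept their calls, with adjusted p from 7.04e-08 for Msx1 to 0.0403 for Htra1.

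**Figure D4:**
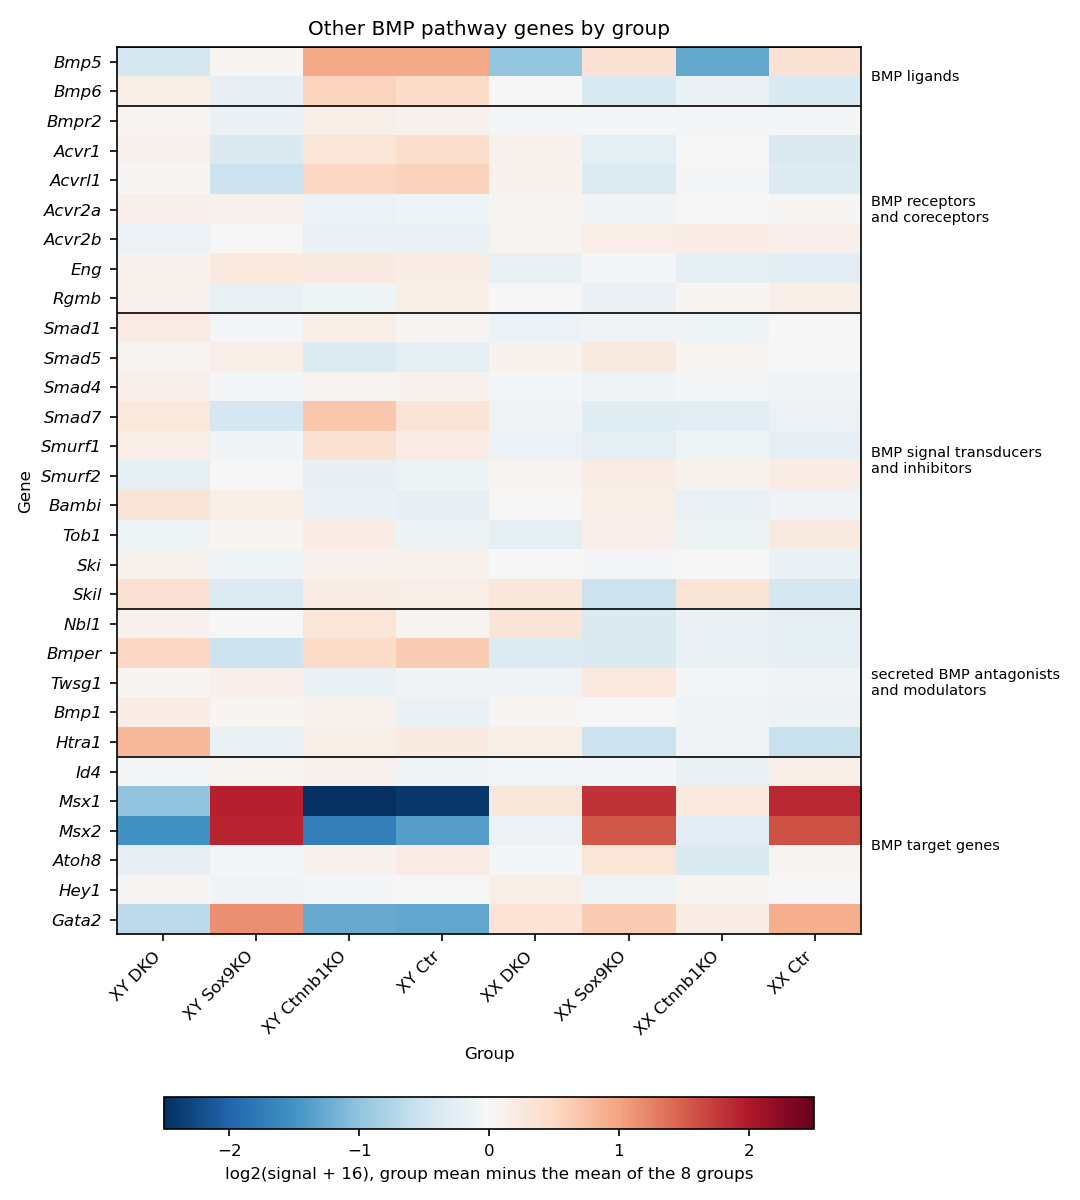
Group means of log2(signal + 16) less the mean over the 8 groups, for the 30 tested genes of the 5 other lists. Msx1, Msx2 and Gata2 are high in XY Sox9KO, XX Sox9KO and XX Ctr, and Bmp5 is low in XX DKO and XX Ctnnb1KO.

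Markers of other cell types were read beside these results. For 6 of 6 Sertoli markers the summed signal was 3342 to 3635 in XY DKO, 19105 to 26247 in XY Ctnnb1KO and XY Ctr, and 1666 to 2520 in the other groups. The 6 pregranulosa markers summed to 5371 to 7639 in the DKO groups and XX Ctnnb1KO, 10681 to 12569 in XY Sox9KO, XX Sox9KO and XX Ctr, and 1492 to 1781 in XY Ctnnb1KO and XY Ctr. Sostdc1 was high in the groups with a high Sertoli sum, and Bmp2, Bmpr1b and the Id genes in those with the highest pregranulosa sums. The Sertoli sum hides changes of single markers in XX gonads. Of the 6, 3 were called higher and 1 lower in XX Ctnnb1KO against XX Ctr, where 10.1% of all genes were called. Counts were the same in XX DKO against XX Ctr (12.9% of genes called), and Sostdc1 was also higher in both. In the DKO groups and XX Ctnnb1KO, with intermediate pregranulosa sums, Bmpr1b averaged 68.5 to 78.4 against 104.7 in XY Ctr. Id3 averaged 1426 to 1656 there against 1922 in XY Ctr, and Id1 491.6 to 531.3 against 522. Bmp2 averaged 205.4 to 311.7 against 110.7, and Id2 971.1 to 1171 against 971. The pregranulosa list was mixed too, with 1 of 6 called higher and 5 lower in XX Ctnnb1KO against XX Ctr. The part Sertoli and pregranulosa cells have in the results was not tested.

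Fetal Leydig markers (4 of 5 on the arrays) summed to 12099 to 15674 in XY DKO, 32849 to 47313 in XY Ctnnb1KO and XY Ctr, and 1407 to 3172 elsewhere. The 5 interstitial markers were at 19836 to 20118 in XY DKO, 24787 to 27761 in XY Ctnnb1KO and XY Ctr, 13688 to 17549 in XX DKO and XX Ctnnb1KO, and 11462 to 13479 in the other 3 groups. The 4 peritubular myoid markers were at 6400 to 7745 in XY DKO, 8431 to 9820 in XY Ctnnb1KO and XY Ctr, and 3237 to 6905 elsewhere. Bmp4 was high where these sums were high, and their part in it was not tested. The fetal Leydig sum also hides changes of single markers in XX gonads. Of the 4, 3 were called higher and 1 lower in XX Ctnnb1KO against XX Ctr (10.1% of all genes called). The counts were the same in XX DKO against XX Ctr (12.9% called).

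Endothelial cells express Id1, Id3 and Smad6, and the 8 endothelial markers summed to 3813 to 5278 over all arrays, with 7 of 8 above the array median in every group. Their ranges overlapped between XY DKO and XY Sox9KO (4318 to 4521 against 4325 to 4484), between XX DKO and XX Sox9KO and between XX Ctnnb1KO and XX Ctr, and XY Sox9KO lay below XY Ctr (4532 to 5056). Mesonephric duct and tubule markers, of which 5 of 6 were on the arrays, summed to 2448 to 3930 in XY Sox9KO, XX Sox9KO and XX Ctr. In the other 5 groups they summed to 1246 to 2220. The Bmpr1b arrays and the Bmp2 arrays were split between the same groups. The arrays of the Id genes overlapped between them. Emx2 made up 66.2% to 91.6% of that sum, and the other 4 markers came to 320.6 to 571.7 in those 3 groups and 261.8 to 568.9 in the other 5. Macrophage markers (6 of 6) summed to 4849 to 7316 in the DKO groups, 3947 to 5876 in XX Ctnnb1KO and 2371 to 4435 elsewhere. Germ cell markers (5 of 5) ran from 5082 to 12478 and erythroid markers (4 of 5) from 13411 to 28886. The germ cell sums were 8589 to 12478 in XY Sox9KO, above the 6575 to 8042 of XY Ctr. In XY DKO they were 9112, 11567 and, in replicate 4, 5082. They overlapped between XX Ctnnb1KO and XX Ctr and between XX DKO and XX Sox9KO. The part of endothelial, mesonephric, macrophage, germ cell and erythroid RNA in the results was not tested.

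**Figure D5:**
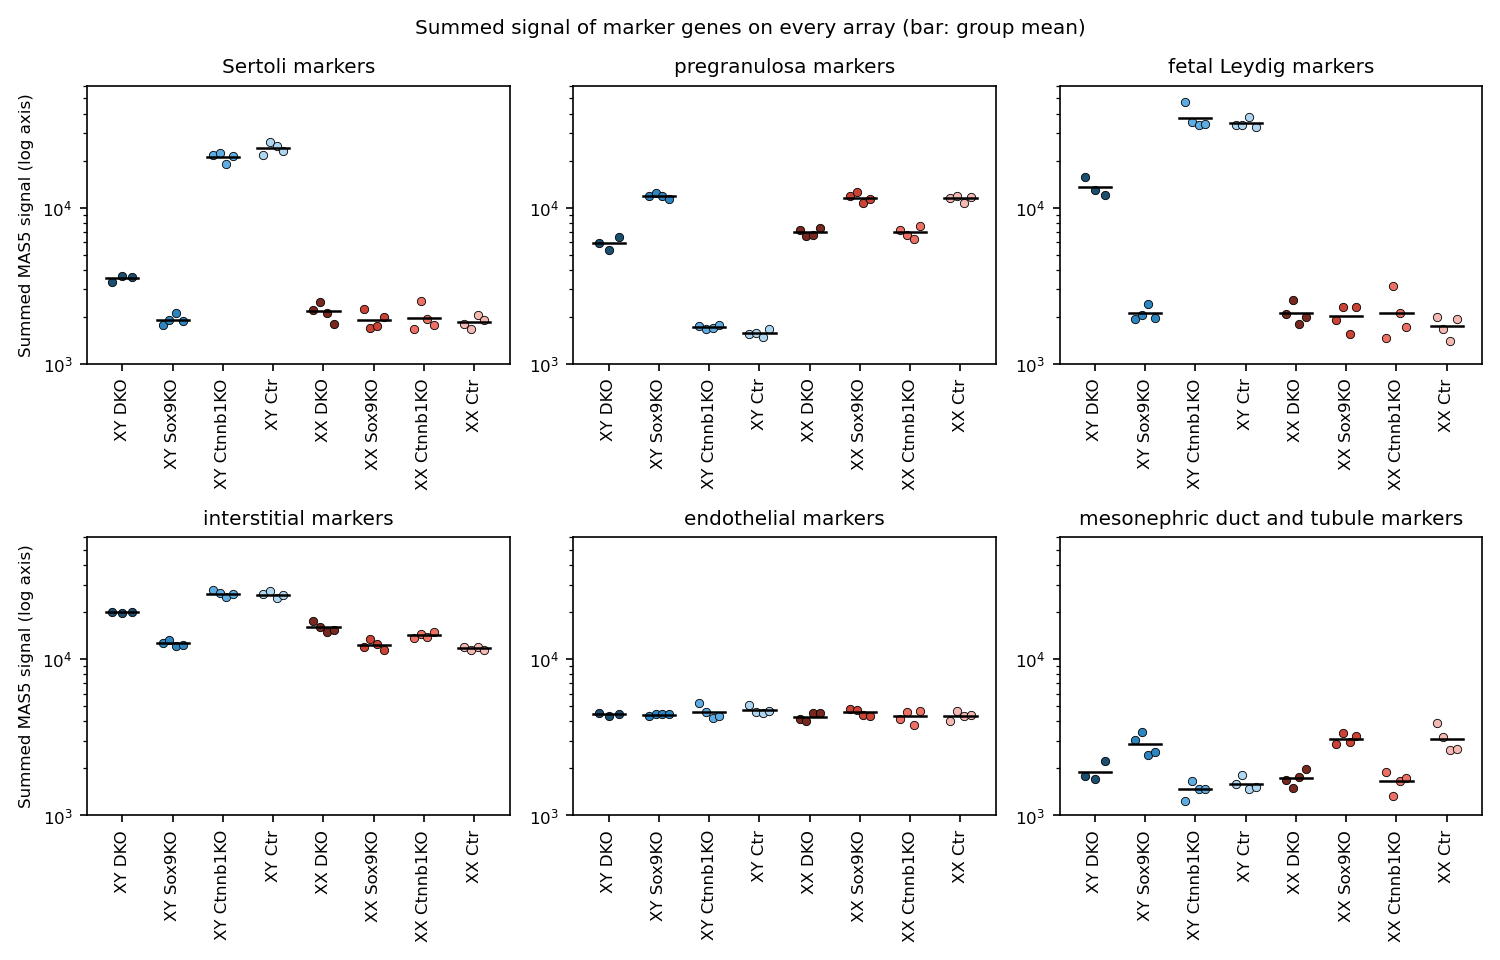
Summed MAS5 signal (log axis) of 6 marker lists on every array, by group; points are arrays and bars group means. Endothelial sums stay between 3813 and 5278, and the mesonephric sums of XY Sox9KO, XX Sox9KO and XX Ctr lie above those of the other 5 groups. Emx2 makes up 66.2% to 91.6% of the mesonephric sums, and without it the sums overlap.

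By the root mean square difference of the 8 centred group means, the genes closest to Sostdc1 were Dhh (0.33 on the log2 scale), Cst9 (0.41), Adh1 (0.41) and Ptgds (0.49). Those closest to Bmp2 were Irx5 (0.15), Rhox13 (0.15), Ankrd29 (0.16) and Krt8 (0.16). Of the 10 members, Sostdc1 had the widest range of group means, 5.83 on the log2 scale with a median SD within groups of 0.34, and Bmpr1a the narrowest, 0.34 with an SD of 0.1.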

How the data were processed

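The authors deposited a linear intensity for each probe set, computed with MAS5 per the submitters' processing notes. The MAS5 version was not given in the sources used here. Every array has a trimmed mean of 500. Per the labels' protocols, 40 ng of RNA was amplified before biotin labelling. Of 45101 probe sets, 34945 have 1 symbol in the platform annotation, and probe sets with several were left out. Log2(signal + 16) was fitted with limma 3.58.1 in R 4.3.3 as 8 group means over all 31 arrays, with eBayes and a trend (23 residual degrees of freedom). Genes above their own array's median on at least 3 arrays were kept, leaving 11777. Adjusted p-values are Benjamini-Hochberg over these. SD is between arrays and SE is from limma. Arrays have no read depth, so their number limits the precision. Scripts were tested on simulated data in which chosen genes had been changed. The 14 comparisons and 3 interactions were rerun under other scalings, pseudocounts, filters and sets of arrays.

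Members, lists, motifs, markers and alternatives were chosen with earlier results of these data known. Named genes were the 10 members, up to 4 called genes of each list per comparison by adjusted p, and the 4 genes most like Sostdc1 and Bmp2 in their group means, without predicted genes. Markers were those of Sertoli, pregranulosa, fetal Leydig, interstitial, endothelial, germ, macrophage, mesonephric, peritubular myoid and erythroid cells. Other probe sets of a member were fitted together with all probe sets.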

Additional observations from a re-analysis of the deposited data

Results flagged for a closer look

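In 3 of 70 groups of 4 arrays tested by Dixon's ratio, 1 array stood far from the rest: Bmp2 at 258.6 in XX Ctnnb1KO replicate 2, Id2 at 1104 in XX Ctnnb1KO replicate 2, and Id2 at 2214 in XX Ctr replicate 1. Chance alone marks about 1 in 20 such groups.

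Effects that differed between groups by an interaction test are listed here as log2 values. Loss of Ctnnb1 in XY gonads acted differently without Sox9 than with it on Bmp2 (-1.47), Bmp4 (1.21), Bmpr1b (-1.16), Id1 (-0.7), Id3 (-1.03) and Sostdc1 (3.31). It acted differently in XY than in XX gonads on Bmp2 (0.94), Bmpr1b (1.09), Id2 (0.92), Id3 (0.77) and Sostdc1 (-1.54), of which Sostdc1 was not called with its second probe set (-1.16, adjusted p = 0.261), nor Id2 with its own (0.51, adjusted p = 0.656). Loss of Sox9 acted differently in XY than in XX gonads on Bmp2 (2.45), Bmp4 (-1.46), Bmpr1b (0.98), Id2 (0.56) and Sostdc1 (-6.2). Of these, the Id2 call (adjusted p = 0.0483) was lost in 13 of 22 alternatives.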

How the results depend on the processing

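No called difference of a member changed sign under any alternative. Of 67 calls, pseudocounts of 1 and 64 lost 0 and 1, quantile normalization and no filter 4 each, and fitting only the arrays compared 8, with 3 gained among 103 uncalled differences. An uncalled difference that stayed uncalled was counted as kept whatever its sign. Other probe sets lost 11 of the 33 calls they could be set against and gained 5. The number of members called in XY DKO against XX DKO was 2, and 1 under quantile normalization, with no filter, with only the arrays compared and with the replicate block. Each array was left out in turn. The count for XY Ctr against XX Ctr then ran from 5 to 8, lowest without XX Ctr replicate 3 or XY Ctr replicate 1, with Bmpr1a, Id1 and Id3 lost in both. That for XY DKO against XX DKO ran from 1 to 2, as Bmp2 was lost without XX DKO replicates 1, 3 or 4 or any XY DKO array. In the other 15 results it stayed within 1.5 times the full count. Same-numbered arrays did not deviate together throughout: their correlations ran from -0.45 to 0.54, and in 0 of 14 comparisons was every pair above 0.1. Some pairs did. The correlations were -0.09, 0.54, -0.02 and 0.29 in XX DKO against XX Ctnnb1KO, and 0.05, 0.23, 0.29 and 0.15 in XY Sox9KO against XX Ctr. With the replicate number as a block, 3 of 67 calls were lost and 2 gained, both of Bmp4, in XX DKO against XX Ctr (adjusted p = 0.0249) and against XX Sox9KO (adjusted p = 0.0399). Quantile scaling moved the median of all genes by at most 0.013. The number of arrays and signals near each array's median limit the smaller differences, and the cause of lost calls was not tested.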
